A study of Saccharomyces cerevisiae with 8 samples.

Results

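The cytosolic Hsp70 and Hsp110 chaperones of budding yeast, Saccharomyces cerevisiae, are encoded by SSA1 (YAL005C), SSA2 (YLL024C), SSA3 (YBL075C), SSA4 (YER103W), SSB1 (YDL229W), SSB2 (YNL209W), SSZ1 (YHR064C), SSE1 (YPL106C) and SSE2 (YBR169C). Those 9 genes and YAL004W, an open reading frame listed with them because it overlaps SSA1, make up the 10 members described here, out of 6600 open reading frames in the count files. They were chosen by name from a proposal made with earlier results of these data in view, and the falls under rapamycin in ceg1-AA and the levels in ceg1-AA/xrn1D were part of what chose them. Their fold changes in those comparisons are therefore given as a description, with standard errors and no p-value. All 10 passed the filter on low counts, which left 5879 genes.

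Hsp70 proteins bind stretches of unfolded protein and release them in a cycle driven by ATP. Hsp40 J-proteins start the cycle by stimulating ATP hydrolysis, and nucleotide exchange factors, among them the Hsp110 proteins Sse1 and Sse2, end it by releasing ADP. In yeast, Ssa1 to Ssa4 are the general cytosolic Hsp70s, with SSA1 and SSA2 expressed in growing cells and SSA3 and SSA4 known as stress-induced genes. Ssb1 and Ssb2 bind nascent chains at the ribosome together with the ribosome-associated complex, which is formed by Ssz1 and the J-protein Zuo1. Heat shock factor Hsf1 drives a small set of chaperone genes through heat shock elements, and Ssa proteins are known to bind and restrain Hsf1. Msn2 and Msn4 drive a wider stress response through the stress response element.

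The study took Ceg1, the guanylyltransferase subunit of the mRNA capping enzyme, out of the nucleus by anchor-away, in which rapamycin ties an FRB-tagged nuclear protein to an FKBP12-tagged ribosomal protein. Every strain was MATalpha with tor1-1, fpr1::NAT, RPL13AxFKB12::TRP and CEG1-FRB::HIS. The ceg1-AA/xrn1D strain also lacked XRN1, the gene of the main cytoplasmic 5′ to 3′ exonuclease, and its genotype is labelled KAN::XRN1 in replicate 1 and KAN::XRN3 in replicate 2. Cells in YPD at 30 °C received rapamycin at 1 µg/mL or DMSO for 45 min, and total RNA was sequenced. The groups were ceg1-AA/xrn1D rapamycin with 2 libraries, ceg1-AA/xrn1D DMSO with 1 library (its replicate 2 was not analysed here), ceg1-AA rapamycin with 2 libraries and ceg1-AA DMSO with 2 libraries. Nothing in the labels says whether replicates came from separate cultures or whether a strain is 1 clone, so the errors cover only the spread between these libraries.

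Total counts ranged from 2990340 to 3385761 in the 3 ceg1-AA/xrn1D libraries and from 935651 to 1618638 in the 4 ceg1-AA libraries. XRN1 had 0 counts in each ceg1-AA/xrn1D library and 338 to 794 counts in the ceg1-AA libraries, and the libraries at 0 carried both of the KAN labels. CEG1, whose transcript anchor-away does not remove, was between 47.6 and 65.6 CPM (counts divided by TMM-scaled library size) in all 7 libraries. Replicates differed by more than counting noise in every group with 2 libraries. Mitochondrially encoded transcripts held 3.37% and 2.47% of the counts in ceg1-AA rapamycin, against 1.41% and 1.13% in ceg1-AA DMSO, and 0.281% or less in ceg1-AA/xrn1D. A level is a share of its own library, and in bulk RNA fewer cells and less RNA per cell cannot be told apart. The part of the mitochondrial share and of depth in the results was not tested, apart from the scalings reported.

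Each of the 9 annotated genes is 1 uninterrupted coding segment in the R64 assembly. SSA1 lies at chrI:139503-141431 on the minus strand, SSA2 at chrXII:95566-97485 (minus), SSA3 at chrII:84499-86448 (minus) and SSA4 at chrV:364589-366517 (plus). SSB1 lies at chrIV:44065-45906 (plus), SSB2 at chrXIV:252059-253900 (plus), SSZ1 at chrVIII:225525-227141 (minus), SSE1 at chrXVI:350194-352275 (minus) and SSE2 at chrII:573915-575996 (minus). YAL004W is not in the reference annotation. A single open frame of its deposited length, 648 bases, was found on the strand opposite to SSA1, at chrI:140760-141407, and all 648 bases lie inside SSA1.

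Near-identical copies limit how far single members can be read. The SSA1 and SSA2 coding sequences matched at 96.8% of aligned bases and SSB1 and SSB2 at 97.6%, against 77.8% for SSA3 with SSA4 and 73.2% for SSE1 with SSE2. Of all 50-base windows of SSA1, 42.1% occurred once in the genome, and the share was 41.8% for SSA2 and 56.8% for each of SSB1 and SSB2. Every 50-base window of SSA3, SSA4, SSE1, SSE2 and SSZ1 occurred once. How reads that fit several places were counted, and whether counting used strand, are not given in the sources used here. Values of SSA1 against SSA2, of SSB1 against SSB2 and of YAL004W against SSA1 are therefore uncertain, and summed values are given beside them.

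Upstream sequences of SSA1, SSA2, SSA3, SSA4, SSB1, SSB2, SSE2 and SSZ1 were read from R64 in a window from 400 to 101 bases before the start codon. Both strands were searched for a heat shock element of 3 units, spelled TTCNNGAANNTTC or GAANNTTCNNGAA, and for the stress response element, spelled AGGGG or CCCCT. Among these 8 windows, those of SSA1 and SSA2 held the heat shock element, and 66 of 6001 windows of all annotated genes held it (1.1%). The windows of SSA1 and SSA2 are shown because the results below turn on these genes, in lower case with the heat shock element in capitals, each 5′ to 3′ on the minus strand, at chrI:141532-141831 for SSA1 and chrXII:97586-97885 for SSA2.
SSA1: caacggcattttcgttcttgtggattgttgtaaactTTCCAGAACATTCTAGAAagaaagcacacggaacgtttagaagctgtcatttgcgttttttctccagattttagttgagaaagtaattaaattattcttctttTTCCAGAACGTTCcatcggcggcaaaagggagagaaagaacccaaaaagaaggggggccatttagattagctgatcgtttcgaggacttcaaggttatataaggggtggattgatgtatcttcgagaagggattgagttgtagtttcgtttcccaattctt
SSA2: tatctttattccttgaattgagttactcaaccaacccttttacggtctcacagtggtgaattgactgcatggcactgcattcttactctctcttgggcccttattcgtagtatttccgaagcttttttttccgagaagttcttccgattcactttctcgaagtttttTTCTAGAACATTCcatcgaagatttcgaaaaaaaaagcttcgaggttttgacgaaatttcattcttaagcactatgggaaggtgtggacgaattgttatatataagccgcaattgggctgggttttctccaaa
The matches lie between 364 and 249 bases before the start codon for SSA1 and between 233 and 221 for SSA2. The stress response element was found in the windows of SSA1, SSA4 and SSE2, and in 1412 of 6001 windows of all genes (23.5%). A match describes the letters only, and only these exact spellings were searched. The absence of one says nothing about variant spellings inside this window or about a factor beyond it.

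**Figure D1:**
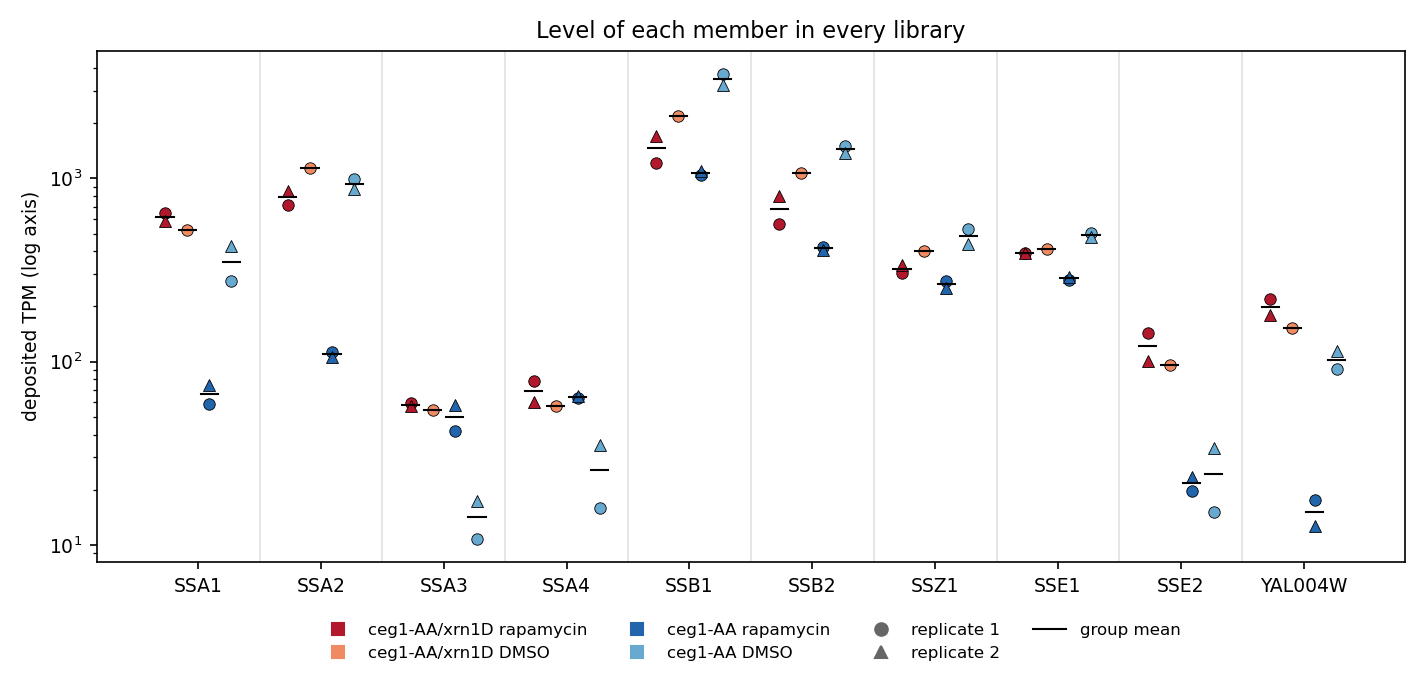
Deposited TPM, on a log axis, of the 10 members in the 7 libraries, with circles for replicate 1, triangles for replicate 2 and a line at each group's mean. SSA1, SSA2, SSB1, SSB2, SSZ1, SSE1 and YAL004W are lowest in the ceg1-AA rapamycin libraries. SSB1 is the highest member in every group, and SSE2 is higher in the ceg1-AA/xrn1D libraries than in the ceg1-AA libraries.

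Levels of different members were compared by deposited TPM, which is per length and per a bias factor of the authors. SSB1 was the highest member in every group, at 1213 and 1708 TPM in ceg1-AA/xrn1D rapamycin, 2202 TPM in ceg1-AA/xrn1D DMSO, 1038 and 1090 TPM in ceg1-AA rapamycin, and 3711 and 3224 TPM in ceg1-AA DMSO. In ceg1-AA/xrn1D rapamycin the next places went to SSA2 (716 and 858 TPM), SSB2 (562 and 796 TPM) and SSA1 (647 and 584 TPM), neighbours whose replicates overlapped. They were followed by SSE1, SSZ1, YAL004W, SSE2, SSA4 and SSA3, and the ceg1-AA/xrn1D DMSO library had the same order over all 10 members. In ceg1-AA DMSO the order was SSB1, SSB2 (1504 and 1378 TPM), SSA2 (994 and 876 TPM), SSE1, SSZ1, SSA1 (276 and 426 TPM), YAL004W, and then SSA4, SSE2 and SSA3, of which neighbours overlapped, as did SSE1 with SSZ1. In ceg1-AA rapamycin SSA2 (113 and 106 TPM) and SSA1 (58.7 and 74.6 TPM) came after SSE1 (280 and 290 TPM) and SSZ1 (276 and 252 TPM), and SSA1 overlapped SSA4 (63.5 and 64.9 TPM). The stress-induced gene SSA4 was thus at the level of SSA1 in those libraries.

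As a share of all counts, the 9 family genes made up 0.664% and 0.774% of the ceg1-AA/xrn1D rapamycin libraries and 0.947% (95% Wilson interval 0.936% to 0.957%) of the ceg1-AA/xrn1D DMSO library. They made up 0.439% and 0.431% of the ceg1-AA rapamycin libraries, against 1.53% and 1.41% of the ceg1-AA DMSO libraries. The interval covers counting error alone, because the reads carry no molecular identifiers and PCR copies are not separate molecules.

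Setting ceg1-AA rapamycin against ceg1-AA DMSO asks what happens to these RNAs when Ceg1 leaves the nucleus of cells that have XRN1. The XRN1 transcript was itself lower, at 366 and 336 CPM in rapamycin, against 651 and 641 CPM in DMSO. Its log2 fold change was -0.88 ± 0.14 (SE, edgeR adjusted p = 0.000789). With limma on the deposited TPM it was -0.13 and did not pass an adjusted p of 0.05. Of the 10 members, 7 were lower at an edgeR adjusted p under 0.05, among 22.8% of all genes that were lower. SSA3 was higher, among 24.3% of all genes that were higher, and SSA4 and SSE2 did not pass. The same 7 were at least 2-fold lower in every pair of libraries, which 7.38% of all genes were, and 0 members were at least 2-fold higher in every pair, as were 4.88% of all genes. In direction alone, 8 members were lower in every pair, so that the groups did not overlap, as were 32.6% of all genes, and 2 were higher, as were 40.8%. Because this comparison was part of the choice of members, nothing is read from these counts. The median fitted log2 fold change was -1.92 over the 10 members and -1.50 over the 9 without YAL004W, against 0.11 over all genes.

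Among the general cytosolic Hsp70s, SSA2 had 203 and 184 CPM in ceg1-AA rapamycin, against 2748 and 2406 CPM in ceg1-AA DMSO. Its fitted log2 fold change was -3.74 ± 0.20 (SE), 13.3-fold lower, and of all 5879 genes none had a lower one. SSA1 had 106 and 130 CPM in rapamycin, against 766 and 1174 CPM in DMSO, a log2 fold change of -3.04 ± 0.23 (SE), 8.22-fold lower and 6th in the order of falls. SSA1 and SSA2 thus had no rapamycin library near a DMSO library. YAL004W had 11 and 8 counts (10.5 and 7.95 CPM) in rapamycin, against 101 and 102 counts (82.8 and 103 CPM) in DMSO. Its log2 fold change of -3.32 ± 0.26 (SE) was the 2nd largest fall. With the deposited counts of SSA1, SSA2 and YAL004W summed, the log2 fold change was -3.51 ± 0.18 (SE). A read deposited under more than 1 of them would enter this sum more than once.

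SSA3 and SSA4, the stress-induced SSA genes, did not share that fall. SSA3 had 76.2 and 102 CPM in ceg1-AA rapamycin, against 30.3 and 48.6 CPM in ceg1-AA DMSO, with a log2 fold change of 1.20 ± 0.24 (SE), 2.29-fold higher, that was 0.51 and did not pass with mitochondrial scaling. SSA4 had 114 and 113 CPM in rapamycin, against 44.3 and 97.3 CPM in DMSO, with a log2 fold change of 0.71 ± 0.29 (SE) that did not pass and was -0.03 with mitochondrial scaling. Both rapamycin libraries lay above both DMSO libraries for SSA3 and for SSA4. DMSO replicate 2 was the higher DMSO library for SSA1, SSA3, SSA4 and SSE2, by 0.61, 0.67, 1.12 and 1.12 on the log2 scale. The 8 genes listed as Msn2 and Msn4 targets also differed there, with summed levels of 772 and 951 CPM in the rapamycin libraries, against 623 and 3602 CPM in DMSO replicates 1 and 2. The part of this difference between the DMSO libraries in the results was not tested. Without DMSO replicate 2, SSA4 passed, at a log2 fold change of 1.36.

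The ribosome-associated Hsp70s were lower by smaller folds than SSA1 and SSA2. SSB1 had 1790 and 1834 CPM in ceg1-AA rapamycin, against 9861 and 8526 CPM in ceg1-AA DMSO, a log2 fold change of -2.34 ± 0.23 (SE), 5.07-fold lower. SSB2 had 729 and 687 CPM in rapamycin, against 3997 and 3645 CPM in DMSO, a log2 fold change of -2.43 ± 0.21 (SE), 5.40-fold lower. Summed, the pair changed by -2.37 ± 0.23 (SE). SSZ1, the Hsp70 of the ribosome-associated complex, had 421 and 382 CPM in rapamycin, against 1235 and 1029 CPM in DMSO, a log2 fold change of -1.50 ± 0.17 (SE), 2.82-fold lower. The groups did not overlap for any of the 3 genes.

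Of the Hsp110 exchange factors, SSE1 had 541 and 537 CPM in ceg1-AA rapamycin, against 1505 and 1412 CPM in ceg1-AA DMSO, a log2 fold change of -1.44 ± 0.15 (SE), 2.71-fold lower. SSE2, the stress-induced copy, had 38.1 and 43.7 CPM in rapamycin, against 45.1 and 99.3 CPM in DMSO. Its log2 fold change of -0.79 ± 0.35 (SE) did not pass, and the ratio ranged from -1.36 to -0.04 over the pairs of libraries. Without DMSO replicate 1 the log2 fold change was -1.28. DMSO replicate 1, at 45.1 CPM, lay close to the rapamycin libraries, so the size of the fall rests on DMSO replicate 2 at 99.3 CPM.

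**Figure D2:**
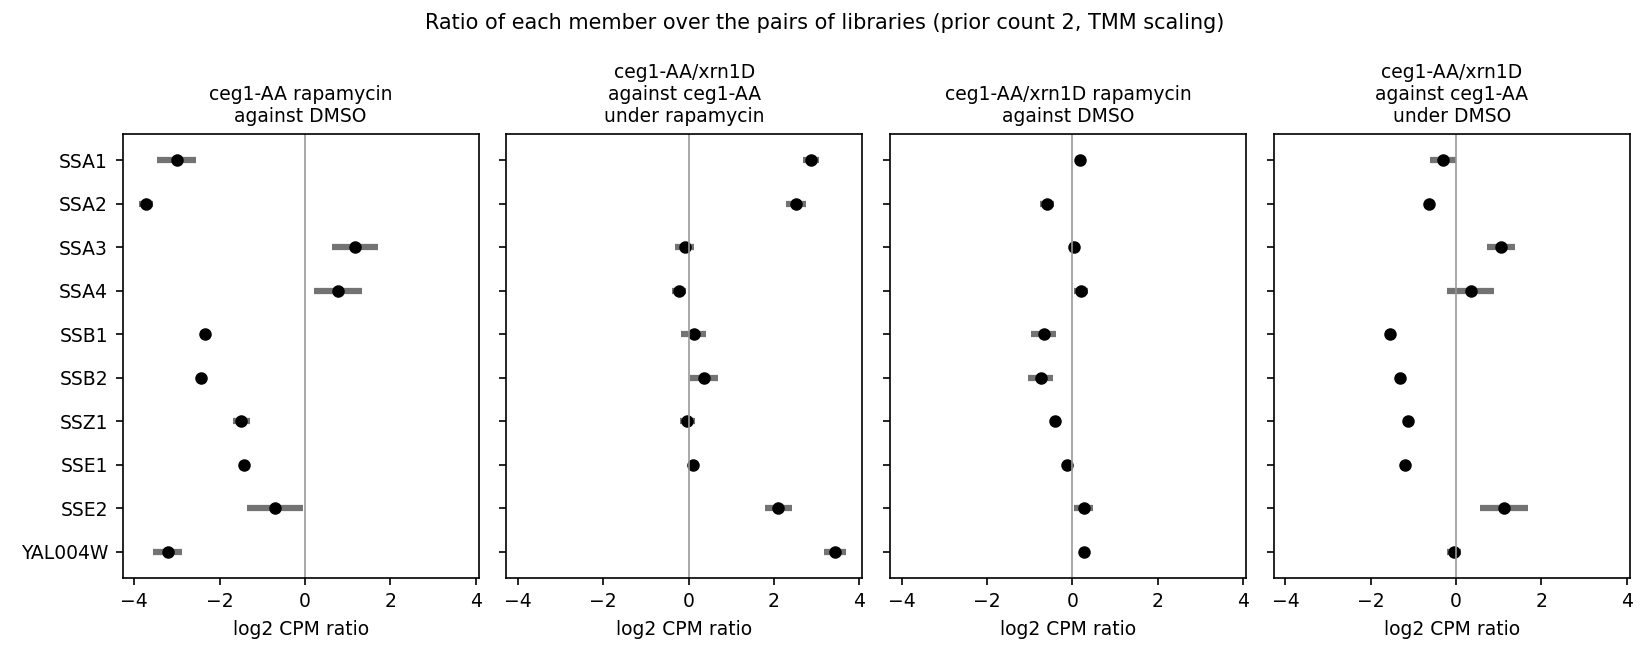
Log2 ratio of CPM (TMM scaling, prior count 2) for each member in the 4 comparisons, with a point at the mean over the pairs of libraries and a bar from the lowest to the highest pair. SSA1, SSA2 and YAL004W lie far below 0 in ceg1-AA rapamycin against DMSO and far above 0 between the strains under rapamycin, whereas all members lie between -1.03 and 0.48 in every pair of ceg1-AA/xrn1D rapamycin against DMSO.

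The comparison of ceg1-AA/xrn1D with ceg1-AA, both under rapamycin, asks how the members differ after Ceg1 depletion when the exonuclease is missing. Of the 10 members, 4 were higher in ceg1-AA/xrn1D at an edgeR adjusted p under 0.05, among 21.2% of all genes that were higher, and the other 6 did not pass. Lower in ceg1-AA/xrn1D were 0 members at an adjusted or unadjusted p under 0.05 in edgeR or at an adjusted p in DESeq2 or limma, among 22.5% of all genes that were lower by edgeR. The 4 were YAL004W, SSA1, SSA2 and SSE2, each at least 2-fold higher in every pair of libraries, as were 5.19% of all genes, and 0 were at least 2-fold lower, as were 5.51%. In direction alone, 6 members were higher in every pair and 1 lower, and so were 38.5% and 36.8% of all genes. This contrast too was part of the choice of members, and it shares the ceg1-AA rapamycin libraries with the comparison above. The median log2 fold change was 0.27 over the 10 members and 0.14 over the 9 without YAL004W, against 0.02 over all genes.

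SSA1 had 892 and 844 CPM in ceg1-AA/xrn1D rapamycin, against 106 and 130 CPM in ceg1-AA rapamycin, a log2 fold change of 2.88 ± 0.23 (SE), 7.36-fold higher. SSA2 had 984 and 1236 CPM in ceg1-AA/xrn1D, against 203 and 184 CPM in ceg1-AA, a log2 fold change of 2.52 ± 0.19 (SE), 5.74-fold higher. YAL004W had 407 and 388 counts (114 and 103 CPM) in ceg1-AA/xrn1D, against 11 and 8 counts in ceg1-AA, a log2 fold change of 3.54 ± 0.25 (SE). These groups stood far apart, and the sum of SSA1, SSA2 and YAL004W differed by 2.70 ± 0.17 (SE). SSE2 had 208 and 154 CPM in ceg1-AA/xrn1D, against 38.1 and 43.7 CPM in ceg1-AA, a log2 fold change of 2.14 ± 0.30 (SE), 4.42-fold higher.

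The other 6 members did not pass in edgeR between the strains under rapamycin, and with limma on TPM SSB2 (0.69) and SSE1 (0.45) passed as well. SSB1 had 1614 and 2389 CPM in ceg1-AA/xrn1D, against 1790 and 1834 CPM in ceg1-AA, so that the groups overlapped, with a log2 fold change of 0.14 ± 0.21 (SE) that was -0.17 without ceg1-AA/xrn1D rapamycin replicate 2. SSB2 had 748 and 1114 CPM in ceg1-AA/xrn1D, against 729 and 687 CPM in ceg1-AA, a log2 fold change of 0.39 ± 0.20 (SE) that passed without ceg1-AA/xrn1D rapamycin replicate 1 (0.65). Replicate 2 of ceg1-AA/xrn1D rapamycin was higher than replicate 1 for SSB1 by 0.57 on the log2 scale, a difference larger than that of 95.2% of all genes between these libraries. SSE1 had 569 and 593 CPM in ceg1-AA/xrn1D, against 541 and 537 CPM in ceg1-AA, a log2 fold change of 0.11 ± 0.15 (SE). SSZ1, SSA3 and SSA4 had log2 fold changes of -0.02 ± 0.17, -0.11 ± 0.20 and -0.22 ± 0.26 (SE), which turned positive on the deposited TPM scale at 0.27, 0.23 and 0.10. A difference that did not pass is not shown to be absent.

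Rapamycin against DMSO within ceg1-AA/xrn1D rests on 1 DMSO library and was described without a test. No member was 2-fold higher or lower in both pairs of libraries, as were 0.323% and 0.187% of all genes. The members' mean log2 ratios lay between -0.74 and 0.27, with a median of -0.04, while the median of all genes was at 0.00. SSA1 had 892 and 844 CPM in rapamycin, against 770 CPM in DMSO, a mean log2 ratio of 0.17 that was -0.18 with mitochondrial scaling. SSA2 had 984 and 1236 CPM in rapamycin, against 1662 CPM in DMSO, a mean log2 ratio of -0.59. The summed SSA1, SSA2 and YAL004W counts gave -0.27.

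In the same comparison the ribosome-associated members were lower in both rapamycin libraries. SSB1 had 1614 and 2389 CPM in rapamycin, against 3132 CPM in DMSO, and SSB2 had 748 and 1114 CPM in rapamycin, against 1526 CPM in DMSO. Their mean log2 ratios were -0.67 and -0.74, and that of SSZ1 (364 and 426 CPM in rapamycin, against 520 CPM in DMSO) was -0.40. SSE1 had 569 and 593 CPM in rapamycin, against 633 CPM in DMSO, a mean log2 ratio of -0.12. SSE2, SSA4, SSA3 and YAL004W had mean log2 ratios of 0.27, 0.21, 0.04 and 0.27, all below 0 with mitochondrial scaling, under which the all-gene median shifted by -0.35. In all, 5 members were higher and 5 lower in both pairs, and so were 39.3% and 39.2% of all genes.

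In DMSO, SSB1, SSB2, SSE1 and SSZ1 were lower in the ceg1-AA/xrn1D library than in both ceg1-AA libraries. This comparison also had no test. SSB1 had 3132 CPM in ceg1-AA/xrn1D, against 9861 and 8526 CPM in ceg1-AA, a mean log2 ratio of -1.55. SSB2, SSE1 and SSZ1 had mean log2 ratios of -1.32, -1.20 and -1.11, and SSB1, SSB2 and SSE1 were at least 2-fold lower in both pairs, as were 7.14% of all genes. These 4 ratios kept their sign but shrank on the deposited TPM scale, under which the all-gene median shifted by 0.81, to -0.65, -0.42, -0.26 and -0.26.

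The SSA genes did not move together between the strains in DMSO. SSA1, at 770 CPM in ceg1-AA/xrn1D, lay between the ceg1-AA libraries at 766 and 1174 CPM, with a mean log2 ratio of -0.30 that was 0.24 with total counts alone. SSA2, at 1662 CPM in ceg1-AA/xrn1D, lay below 2748 and 2406 CPM in ceg1-AA, with a mean log2 ratio of -0.63 that was 0.28 on the TPM scale. SSA3 had 80.6 CPM in ceg1-AA/xrn1D, against 30.3 and 48.6 CPM in ceg1-AA, a mean log2 ratio of 1.05. SSE2 had 148 CPM in ceg1-AA/xrn1D, against 45.1 and 99.3 CPM in ceg1-AA, a mean log2 ratio of 1.14. By CPM, SSA4 (83.5 CPM, against 44.3 and 97.3 CPM) and YAL004W (89.8 CPM, against 82.8 and 103 CPM) lay between the ceg1-AA libraries. On the deposited TPM scale each lay above both ceg1-AA libraries, SSA4 at 57.0 TPM against 15.9 and 35.3 TPM, and YAL004W at 152 TPM against 91.2 and 114 TPM. In both pairs 5 members were lower and 2 higher, and so were 39.5% and 44.1% of all genes, and 0 members were at least 2-fold higher, as were 7.55% of all genes.

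Shares within the family do not depend on how libraries are scaled. SSA3 and SSA4 together made up 9.22% and 7.55% of the SSA1 to SSA4 counts in ceg1-AA/xrn1D rapamycin and 6.32% in ceg1-AA/xrn1D DMSO. They made up 38.2% and 40.7% in ceg1-AA rapamycin, against 2.08% and 3.92% in ceg1-AA DMSO. The ceg1-AA rapamycin libraries thus stood far above every other library in this share. SSA1 and SSA2 hold the rest of the total, and their fall there was part of the choice of members. Under rapamycin SSA3 itself had 76.2 and 102 CPM in ceg1-AA, against 82.2 and 83.2 CPM in ceg1-AA/xrn1D. SSA4 had 114 and 113 CPM in ceg1-AA, against 108 and 86.7 CPM in ceg1-AA/xrn1D. SSA1 to SSA4 made up 46.7% and 39.1% of the SSA and SSB counts in ceg1-AA/xrn1D rapamycin and 35.8% in ceg1-AA/xrn1D DMSO, against 16.5% and 17.4% in ceg1-AA rapamycin and 20.6% and 23.4% in ceg1-AA DMSO. Every ceg1-AA/xrn1D library was above every ceg1-AA library. Levels in ceg1-AA/xrn1D were also part of the choice of members, so both shares are descriptions.

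**Figure D3:**
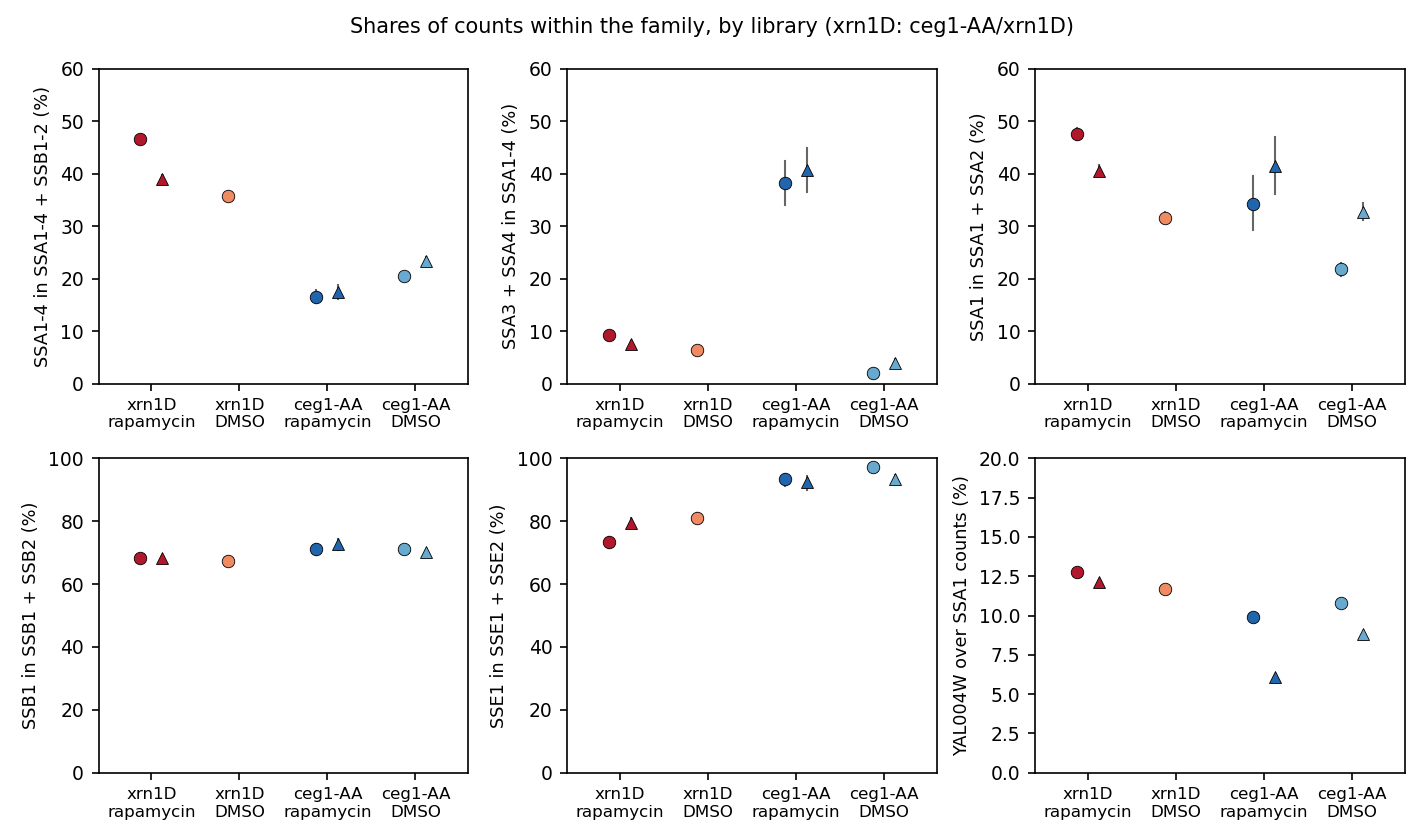
Shares of counts within the family in each library (circles replicate 1, triangles replicate 2, bars 95% Wilson intervals, YAL004W without a bar). SSA3 with SSA4 reaches 38.2% and 40.7% of the SSA counts in ceg1-AA rapamycin, SSB1 stays between 67.2% and 72.8% of the SSB counts, and SSE1 holds less of the Hsp110 counts in the ceg1-AA/xrn1D libraries than in the ceg1-AA libraries.

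Within pairs of related members, SSB1 held 68.3% and 68.2% of the SSB counts in ceg1-AA/xrn1D rapamycin, 67.2% in ceg1-AA/xrn1D DMSO, 71.1% and 72.8% in ceg1-AA rapamycin and 71.2% and 70.1% in ceg1-AA DMSO. SSA1 held 47.6% and 40.6% of the SSA1 and SSA2 counts in ceg1-AA/xrn1D rapamycin and 31.7% in ceg1-AA/xrn1D DMSO. It held 34.3% and 41.5% in ceg1-AA rapamycin, against 21.8% and 32.8% in ceg1-AA DMSO, where the replicates were the farthest apart. SSE1 held 73.2% and 79.4% of the Hsp110 counts in ceg1-AA/xrn1D rapamycin and 81.0% in ceg1-AA/xrn1D DMSO, against 93.4% and 92.5% in ceg1-AA rapamycin and 97.1% and 93.4% in ceg1-AA DMSO. For YAL004W, the count was between 6.11% and 12.8% of the SSA1 count in every library, or 0.182 to 0.381 of the SSA1 count per kb. The lowest share, 6.11%, rests on 8 counts.

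The genes whose pattern over the 7 libraries was closest to a member were found by the root-mean-square difference in log2 CPM, each gene centred on its own mean, among 5006 genes with a mean of at least 20 CPM. For SSA2, whose own root-mean-square deviation was 1.48, they were KAR2 (0.329), the Hsp70 of the endoplasmic reticulum, ALD6 (0.331), an aldehyde dehydrogenase gene, and HSP60 (0.423), the mitochondrial chaperonin. SSB1 (own deviation 1.01) was closest to YDL228C (0.116), and then to TEF1 (0.125) and TEF2 (0.146), which encode the same translation elongation factor. YDL228C was matched to an open frame of 642 bases opposite to SSB1, at chrIV:45277-45918, of which 630 bases lie inside SSB1, so their reads may be the same. SSE1 (own deviation 0.612) was closest to EMC10 (0.0671), EGD2 (0.0769) and RPL20B (0.0770), and SSA4 (own deviation 0.437) to DPB3 (0.0852), YJU2 (0.101) and PFK26 (0.132). Among the members the closest were SSE1 with SSZ1 (0.120), SSB1 with SSB2 (0.126), SSA1 with YAL004W (0.298) and SSA3 with SSA4 (0.315).

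Partner genes of the family were counted in lists, beside the shares of all genes called given above. In ceg1-AA, rapamycin against DMSO, 7 of the 51 listed genes in the fit were higher and 26 lower by edgeR, beside 24.3% and 22.8% of all genes. Between the strains under rapamycin 24 were higher and 6 lower, beside 21.2% and 22.5% of all genes. The comparisons share the ceg1-AA rapamycin libraries. Genes outside the naming rule are named here where 5 or fewer passed, and they were chosen after their values were seen. The lists were chosen with earlier results of these data known. Apart from HSF1, MSN2 and MSN4, genes were named by their change in these same fits. The adjusted p-values printed for partner genes therefore describe the fits and are no independent support.

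Of 11 Hsp40 cochaperones, 3 were lower and 4 higher in ceg1-AA rapamycin against DMSO, near the shares of all genes (22.8% and 24.3%). YDJ1, the main general J-protein, averaged 224 ± 15.7 CPM in rapamycin and 848 ± 185 CPM in DMSO (SD, n = 2 each), for a fitted log2 change of -1.92 ± 0.19 (SE, edgeR adjusted p = 4.43e-05). SIS1, an essential J-protein, changed by -2.16 ± 0.29 (edgeR adjusted p = 0.000222) and CAJ1 by -1.08 ± 0.17. The higher ones were SWA2 (1.51 ± 0.47), JJJ3 (1.26 ± 0.35), JJJ2 (1.02 ± 0.27) and XDJ1 (0.70 ± 0.18). SWA2 and JJJ3 rest on few reads. SWA2 had 13 and 19 counts in ceg1-AA rapamycin, against 7 and 5 in ceg1-AA DMSO, and JJJ3 had 32 and 26 counts, against 17 and 9. JJJ3 did not pass without ceg1-AA rapamycin replicate 1 (1.14), nor JJJ2 without replicate 2 (0.78), and with mitochondrial scaling none of the 4 passed, with JJJ3 at 0.61 and JJJ2 at 0.41. Of the 2 other exchange factors, FES1 changed by -0.47 ± 0.15 (edgeR adjusted p = 0.0242), which turned to 0.05 with total counts alone and 0.12 on the TPM scale and did not pass without ceg1-AA rapamycin replicate 1 (-0.42) or 2 (-0.52) or ceg1-AA DMSO replicate 1 (-0.34), and SNL1 did not pass (-0.43 ± 0.24).

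Between the strains under rapamycin, SIS1 was higher in ceg1-AA/xrn1D by 1.21 ± 0.29 (edgeR adjusted p = 0.0062), HLJ1 by 0.58 ± 0.15 and YDJ1 by 0.53 ± 0.18, while JJJ1 (-1.11 ± 0.16, edgeR adjusted p = 0.000379), JJJ2 (-0.83 ± 0.23), CAJ1 (-0.59 ± 0.17) and DJP1 (-0.46 ± 0.14) were lower. HLJ1 and JJJ2 did not pass with DESeq2 or without ceg1-AA/xrn1D rapamycin replicate 2, where they were at 0.55 and -0.74. HLJ1 also did not pass without ceg1-AA rapamycin replicate 1 (0.46), nor JJJ2 without ceg1-AA rapamycin replicate 2 (-0.59) or with limma on TPM (-0.49). Of the 4 lower genes, 2 passed with DESeq2 and 1 with limma on TPM. Over all genes, 21.2% were higher and 22.5% lower by edgeR. FES1 and SNL1 passed in neither direction, at an adjusted or unadjusted p under 0.05 in edgeR or at an adjusted p in DESeq2 or limma.

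Of 4 ribosome-associated partners of the SSB proteins, 3 were lower in ceg1-AA rapamycin against DMSO. ZUO1, the J-protein that forms the ribosome-associated complex with Ssz1, averaged 119 ± 30.1 CPM in rapamycin and 479 ± 53.9 CPM in DMSO (SD, n = 2 each), for a fitted log2 change of -2.01 ± 0.20 (SE, edgeR adjusted p = 4.43e-05). EGD1 and EGD2, subunits of the nascent polypeptide-associated complex, were also lower, EGD2 with a log2 change of -1.47 ± 0.16 (edgeR adjusted p = 6.96e-05), and BTT1 did not pass. Between the strains under rapamycin, 0 of the 4 passed at an adjusted or unadjusted p under 0.05 in edgeR or at an adjusted p in DESeq2 or limma, like SSB1, SSB2 and SSZ1 themselves in edgeR.

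Of 11 genes of Hsp90 and its cochaperones, which receive clients from Hsp70, 9 were lower and 1 higher in ceg1-AA rapamycin against DMSO. HSC82, the constitutive Hsp90 gene, averaged 570 ± 22.0 CPM in rapamycin and 4801 ± 516 CPM in DMSO (SD, n = 2 each), for a fitted log2 change of -3.07 ± 0.18 (SE, edgeR adjusted p = 9.23e-06). STI1, the cochaperone that bridges Hsp70 and Hsp90, changed by -2.76 ± 0.19 (edgeR adjusted p = 9.79e-06), and SGT1 by 0.87 ± 0.20, which was 0.19 and did not pass with mitochondrial scaling. HSC82 is known to have a near-identical copy in HSP82, so their split may be uncertain, but their identity was not measured here. Of the same genes, 6 were higher in ceg1-AA/xrn1D than in ceg1-AA under rapamycin, with STI1 at 1.99 ± 0.18 (edgeR adjusted p = 2.94e-05) and AHA1, an activator of the Hsp90 ATPase, at 1.70 ± 0.15 (edgeR adjusted p = 2.29e-05), and CNS1 was lower (-1.73 ± 0.27).

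Of 5 Hsp70 and Hsp110 genes of the endoplasmic reticulum and mitochondria, 3 were lower and 1 higher in ceg1-AA rapamycin against DMSO. KAR2 averaged 168 ± 0.428 CPM in ceg1-AA rapamycin and 1417 ± 140 CPM in ceg1-AA DMSO (SD, n = 2 each), for a fitted log2 change of -3.07 ± 0.19 (SE, edgeR adjusted p = 9.23e-06). SSC1, the mitochondrial matrix Hsp70, changed by -1.66 ± 0.16 and LHS1, the exchange factor of Kar2, by -1.27 ± 0.15, ECM10 was higher by 0.55 ± 0.19, a call lost with DESeq2 (0.48) and whichever library was left out (0.48 to 0.61) and turned to -0.13 with mitochondrial scaling. SSQ1 did not pass in edgeR (0.01 ± 0.17) or DESeq2 (-0.06), but passed with limma on TPM (0.64) and with total counts alone (0.52), and was at -0.66 with mitochondrial scaling. Under rapamycin KAR2 (1.85 ± 0.18, edgeR adjusted p = 3.96e-05) and SSC1 (1.49 ± 0.16, edgeR adjusted p = 6.34e-05) were higher in ceg1-AA/xrn1D, and the other 3 did not pass in edgeR, DESeq2 or limma. HSP104, HSP42 and HSP26, which encode the disaggregase and small heat shock proteins, passed in neither comparison by edgeR, DESeq2 or limma, and 1 of the 3 had an unadjusted p under 0.05 in each comparison. HSP26 was at 578 CPM in ceg1-AA DMSO replicate 2 and 41.8 CPM in replicate 1.

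**Figure D4:**
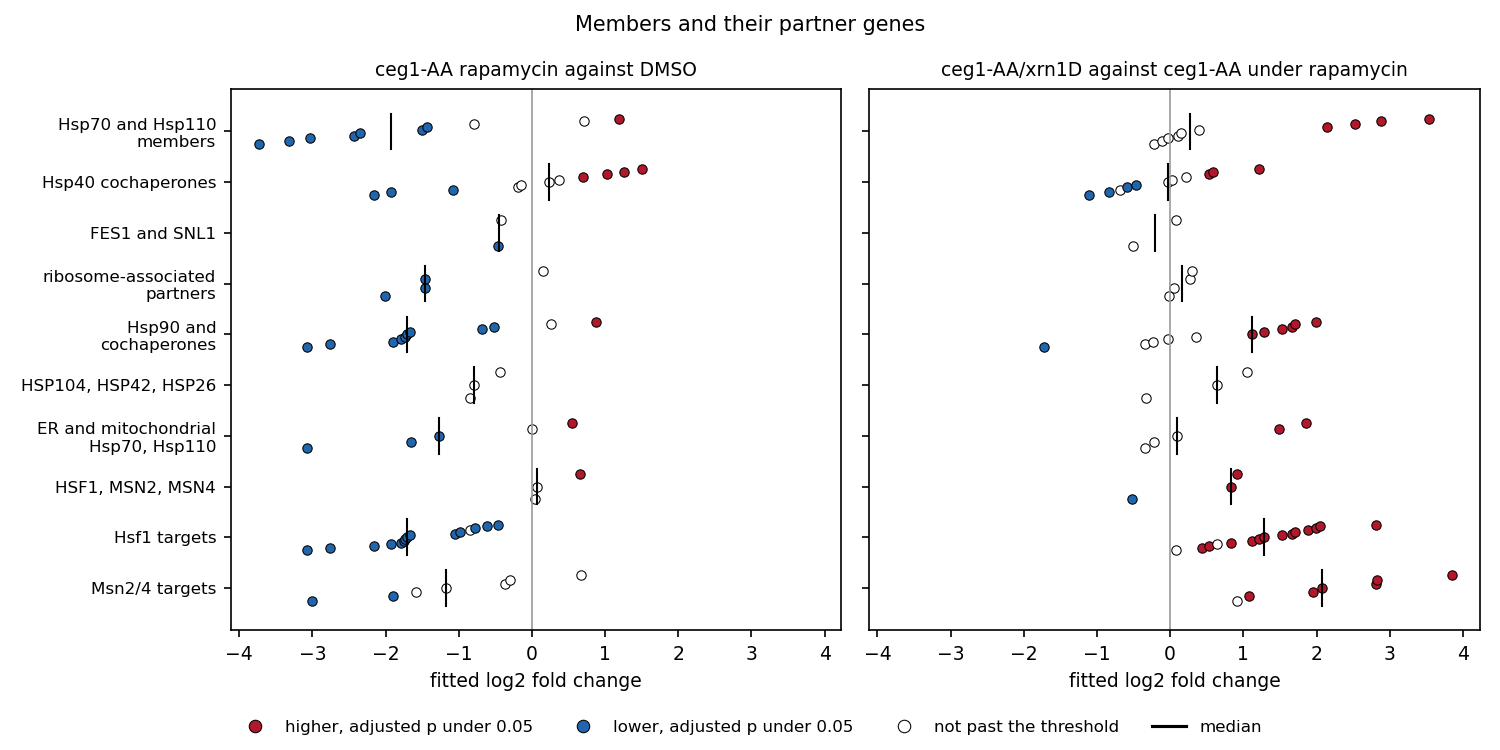
Fitted log2 fold changes of the members and of the partner lists in the comparisons with a test, with filled points for genes past an edgeR adjusted p of 0.05, open points for genes not past it and a line at each list's median. Of the Hsf1 targets, 14 lie below 0 and are called in ceg1-AA rapamycin against DMSO, and 13 lie above 0 and are called between the strains under rapamycin.

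HSF1 itself averaged 93.3 ± 4.06 CPM in ceg1-AA rapamycin and 59.5 ± 1.85 CPM in ceg1-AA DMSO (SD, n = 2 each), for a fitted log2 change of 0.65 ± 0.17 (SE, edgeR adjusted p = 0.00932) that was -0.03 with mitochondrial scaling and did not pass with DESeq2 (0.58) or without ceg1-AA rapamycin replicate 1 (0.61). MSN2 (0.07 ± 0.31) and MSN4 (0.04 ± 0.18) did not pass there in edgeR. MSN4 passed with total counts alone (0.56) and with limma on TPM (0.68), and was at -0.02 with DESeq2 and -0.63 with mitochondrial scaling, where MSN2 was at -0.61. Between the strains under rapamycin (ceg1-AA/xrn1D over ceg1-AA), HSF1 differed by -0.52 ± 0.15 (edgeR adjusted p = 0.0166), MSN2 by 0.83 ± 0.26 and MSN4 by 0.91 ± 0.16 (edgeR adjusted p = 0.00128). The HSF1 difference did not pass with DESeq2 or without any 1 of the 4 rapamycin libraries (-0.57 to -0.48), and it was smaller and did not pass with limma on TPM (-0.14). The MSN2 difference did not pass with DESeq2, without replicate 1 or 2 of ceg1-AA/xrn1D rapamycin (0.81 and 0.84) or without ceg1-AA rapamycin replicate 2 (0.49).

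Of 15 Hsf1 targets outside the family, 14 were lower in ceg1-AA rapamycin against DMSO by edgeR and by DESeq2 and 9 by limma on TPM, with an edgeR median log2 fold change of -1.71 against 0.11 over all genes. The list holds 10 genes of the lists above, and 7 of its 15 upstream windows held the heat shock element. Under rapamycin, 13 of the 15 were higher in ceg1-AA/xrn1D than in ceg1-AA, with a median of 1.29 against 0.02 over all genes. MBF1, a transcriptional coactivator gene, averaged 946 ± 52.1 CPM in the ceg1-AA/xrn1D libraries, against 135 ± 4.18 CPM in the ceg1-AA libraries (SD, n = 2 each), for a fitted log2 change of 2.81 ± 0.17 (SE, edgeR adjusted p = 1.74e-06). HSP78, the mitochondrial disaggregase, differed by 2.05 ± 0.27 (edgeR adjusted p = 0.000209). SSA1 and SSA2 lay beyond the median of this list in both comparisons, whereas SSE1 was at -1.44 in ceg1-AA and at 0.11 between the strains under rapamycin.

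Of 8 Msn2 and Msn4 targets, 7 passed the filter on low counts, and under rapamycin 6 were higher in ceg1-AA/xrn1D than in ceg1-AA by edgeR, 2 by DESeq2 and 3 by limma, with a median of 2.08. HSP12, a stress protein gene, had 675 and 269 CPM in ceg1-AA/xrn1D rapamycin, against 25.7 and 39.8 CPM in ceg1-AA rapamycin, a log2 fold change of 3.85 ± 0.63 (SE, edgeR adjusted p = 0.000792), and HXK1 differed by 2.82 ± 0.81 (edgeR adjusted p = 0.016), a call lost with DESeq2, with limma on TPM and without ceg1-AA/xrn1D rapamycin replicate 1 (2.64) or ceg1-AA rapamycin replicate 1 (2.65) or 2 (3.01). In ceg1-AA rapamycin against DMSO 2 were lower, HXK1 (85.7 and 109 CPM in rapamycin, against 116 and 1453 CPM in DMSO) and PGM2 (132 and 157 CPM in rapamycin, against 111 and 971 CPM in DMSO), and without ceg1-AA DMSO replicate 2 neither passed, at log2 fold changes of -0.25 and 0.38. Only 1 of these calls was made by DESeq2 and 0 by limma on TPM, where HXK1 was at -1.46 and PGM2 at -0.55. The summed level of the 8 genes was 3457 and 2629 CPM in ceg1-AA/xrn1D rapamycin and 2490 CPM in ceg1-AA/xrn1D DMSO, against 772 and 951 CPM in ceg1-AA rapamycin. Like SSE2, it was higher in each ceg1-AA/xrn1D library than in the ceg1-AA rapamycin libraries. In ceg1-AA DMSO replicate 2, however, it was at 3602 CPM, above every ceg1-AA/xrn1D library, whereas SSE2, at 99.3 CPM, was below each of them. The part of the summed level in the SSE2 difference was not tested.

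In ceg1-AA/xrn1D rapamycin against DMSO, the Hsf1 targets had a median log2 ratio of 0.04, and 1 of the 15, HSP78, was at least 2-fold higher in both pairs, at 1.29. Of the other lists, the disaggregase and small heat shock proteins had the highest median, 1.14, with HSP104 at 0.86, HSP42 at 1.14 and HSP26 at 1.19, each above 0 in both pairs. The Msn2 and Msn4 targets had a median of 0.41 and the stress transcription factors 0.02. The medians were -0.27 for the ribosome-associated partners, -0.24 for the Hsp40 cochaperones, -0.22 for the other exchange factors and -0.04 for both the Hsp90 list and the Hsp70 and Hsp110 genes of other compartments. In DMSO, ceg1-AA/xrn1D against ceg1-AA, the lists lay on both sides of 0. The medians were 0.94 for the stress transcription factors, 0.88 for the Msn2 and Msn4 targets and 0.53 for the Hsp40 cochaperones. They were -1.01 for the ribosome-associated partners, -0.90 for the disaggregase and small heat shock proteins, -0.75 for the Hsp90 list, -0.42 for the other exchange factors, and -0.24 for the Hsf1 targets and for the Hsp70 and Hsp110 genes of other compartments. The all-gene median of this comparison, 0.06, shifts by 0.81 on the TPM scale, which is more than the size of these medians other than -1.01, -0.90, 0.94 and 0.88. Of these, 0.88 is the value of HXK1, whose pairs were at -0.94 and 2.70. The median of -0.90 is the value of HSP104, whose pairs were at -1.64 and -0.15. HSP42 (-1.20 and 0.54) and HSP26 (-3.29 and 0.47) had pairs on both sides of 0.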

How the data were processed

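The files hold total RNA sequencing of 7 of 8 labelled libraries, grouped by sample title. The authors' deposited counts are raw whole numbers per open reading frame, and the deposited TPM values are per length and per bias factor, scaled to a fixed sum per library, per the file headers. FastQC 0.11.5, HISAT2 2.1.1, SAMtools 1.15.1 and DESeq2 and the builds R64 and sacCer3 are named, with no roles, in the submitters' processing notes. The counting program and its use of strand are not given in the sources used here. Names and sequences came from RefSeq's R64, in which 5917 of 6600 identifiers were found.

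The members, the partner lists and the alternatives were chosen with earlier results of these data known. Counts were fitted with edgeR 4.0.16 in R 4.3.3 (filterByExpr, TMM, quasi-likelihood, 1 coefficient per group, 7 libraries), with Benjamini-Hochberg adjustment over 5879 genes and a threshold of 0.05. Each SE is the size of the log2 fold change divided by the square root of the quasi-likelihood F statistic. It therefore holds the same information as that test. Comparisons with the lone DMSO library of ceg1-AA/xrn1D were described by log2 CPM ratios with a prior count of 2 over all pairs of libraries. DESeq2 1.42.0, limma 3.58.1 on log2(TPM + 1), other scalings and left-out libraries were alternatives. Identity, windows and motifs used Biopython 1.88, with upstream windows reported for 8 of the 10 members. The fit was also run on simulated data for ceg1-AA rapamycin against DMSO, with 5732 genes, of which 197 were changed. It called 183 of the changed ones in the right direction and 0 in the wrong direction. It also called 11 of the unchanged ones. The part of the scaling in that outcome was not tested. Depth limits precision: a count of 3 was worth 2.46 to 3.04 CPM in ceg1-AA and 0.792 to 0.888 CPM in ceg1-AA/xrn1D. Partner genes were named as up to 2 called genes per direction with the largest change in each list, at a mean count of at least 50, with HSF1, MSN2, MSN4, XRN1 and CEG1 in any case.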

Additional observations from a re-analysis of the deposited data

Results flagged for a closer look

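For 6 results every pair of libraries moved one way in 1 setting and the opposite way in the other, and the difference between the settings was not tested. For rapamycin against DMSO, SSA1 had a mean log2 ratio of 0.17 in ceg1-AA/xrn1D and -3.01 in ceg1-AA. SSE2 had 0.27 in ceg1-AA/xrn1D and -0.70 in ceg1-AA, and YAL004W had 0.27 in ceg1-AA/xrn1D and -3.21 in ceg1-AA. With mitochondrial scaling the ceg1-AA/xrn1D values were -0.18 for SSA1, -0.08 for SSE2 and -0.08 for YAL004W, so that the signs were then alike. Opposite directions in every pair were found for 3 of the 10 members and for 19% of all genes.

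For ceg1-AA/xrn1D against ceg1-AA, SSA2 had a mean log2 ratio of 2.51 under rapamycin and -0.63 under DMSO. SSB2 had 0.37 under rapamycin and -1.32 under DMSO, and SSE1 had 0.11 under rapamycin and -1.20 under DMSO. On the deposited TPM scale the SSA2 ratio under DMSO was 0.28. Opposite directions in every pair were found for 3 of the 10 members and for 17.7% of all genes.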

How the results depend on the processing

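In ceg1-AA rapamycin against DMSO, the members called higher numbered 2 with total counts alone, with upper-quartile scaling and with limma on TPM, 0 with mitochondrial scaling and 1 to 2 with 1 library left out, against 1 in the report, and those called lower numbered 4 of 7 features when near-identical members were summed and 7 to 8 with 1 library left out, against 7. SSA4 passed there at 1.22 with total counts, 0.81 with upper-quartile scaling and 1.39 on TPM and reversed to -0.03 with mitochondrial scaling, under which SSA3 did not pass at 0.51. Between the strains under rapamycin, 2 summed features were higher and 4 to 5 members with 1 library left out, against 4. Not past the threshold in any fit, SSZ1 reversed to 0.065 (total counts) and 0.27 (TPM), SSA3 to 0.23 (TPM) and SSA4 to 0.10 (TPM). With 1 library left out, SSZ1 ranged from -0.14 to 0.086 (positive without replicate 1 of either group), SSA3 from -0.31 to 0.12 (positive without ceg1-AA rapamycin replicate 2) and SSB1 from -0.17 to 0.40 (negative without ceg1-AA/xrn1D rapamycin replicate 2). SSB2 passed at 0.48 with total counts and 0.69 on TPM, and SSE1 at 0.45 on TPM. Partner genes in ceg1-AA numbered 13, 4, 13 and 0 higher with total counts, DESeq2, TPM and mitochondrial scaling (3 to 9 with 1 library left out, with 3 without ceg1-AA rapamycin replicate 2 and 4 without replicate 1, 7 in the report) and 16 lower on TPM (17 to 30, with 17 without ceg1-AA rapamycin replicate 1, 26 in the report). Between the strains 3 and 2 were lower with DESeq2 and TPM (2 to 6, with 2 without replicate 2 of either rapamycin group, 6 in the report). In ceg1-AA/xrn1D rapamycin against DMSO, 2-fold lower members numbered 0 to 1 with 1 library left out. In DMSO, total counts and TPM each gave 2 higher and 0 lower members (0 to 2 and 3 to 4 with 1 library left out), against 0 and 3. Over all genes, ceg1-AA rapamycin against DMSO gave 2909 higher and 649 lower with total counts, 3190 and 521 on TPM, 847 and 1253 with DESeq2 and 85 and 1935 with mitochondrial scaling, against 1429 and 1338, and these settings other than DESeq2 shifted the all-gene median by 0.51, 0.61 and -0.67. Between the strains TPM gave 1675 higher and 663 lower, against 1246 and 1321. The causes were not tested. The labels do not say that replicate numbers pair samples, and deviations of same-numbered samples correlated at 0.131 and -0.027. With a replicate block, SSE2 passed in ceg1-AA at -0.84 and SSB2 between the strains at 0.36, so that 8 members were lower and 5 higher. The 7 members called lower and the 4 called higher kept their direction in every fit of single members.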
